A study of Homo sapiens with 6 samples.

Results

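The collagen chain genes examined here were COL6A1, COL6A2, COL18A1, COL4A1, COL4A2, COL5A1, COL5A3, COL7A1, COL12A1 and COL1A1, 10 of the 53826 gene entries measured by RNA-seq in A549 cells. They were chosen by symbol, with the difference between the cell lines in these libraries already known, so the values of that difference describe the chains and test nothing. A549 is a human lung adenocarcinoma line. Both lines of the comparison carried a retroviral pMXs vector: A549-TIPARP cells stably expressed TIPARP, A549-GFP cells stably expressed green fluorescent protein, and 3 libraries were sequenced from each. The sources name no clone for either line and give experiment numbers for the libraries, but do not say whether the experiments were separate cultures. The SD below therefore measure the spread between these libraries only. The SE and intervals refer to the same libraries but are limma values. In that fit the variance of each gene is drawn toward a trend over all analysed genes. The SE and intervals of a gene therefore need not match its SD, and can be narrower. TIPARP is an enzyme that attaches single ADP-ribose units to proteins and is induced by the aryl hydrocarbon receptor (AHR). The study examined vessel growth around grafts of these lines on the chick chorioallantoic membrane, and the RNA-seq asked which genes differed between them.

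Collagens are extracellular matrix proteins whose chains wind around each other in a helix before they are secreted. Chains of collagens I and V build fibrils, collagen XII decorates fibrils, collagen IV forms the network of basement membranes, collagen VII anchors basement membranes to the tissue beneath, and collagen VI forms beaded filaments around cells. Collagen XVIII sits in epithelial and vascular basement membranes, and its end fragment, endostatin, restrains vessel growth. In lung tumours fibroblasts make most fibrillar collagen, while epithelial cells contribute mainly basement membrane chains.

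Expression is given as TPM, a relative transcript abundance corrected for length, so that levels can be compared between chains. The deposited log2 values start at 0, that is 1 TPM, and smaller levels had been raised to this lowest value. A gene was analysed if it passed 2 TPM in at least 1 of the 6 libraries, which kept 13181 entries and 9 of the 10 chains. COL5A1 was at the lowest value in every library. Of all 44 collagen chain genes listed, 16 were analysed. TPM carries no read depth, so the counting error behind each value is unknown.

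The regulatory sequence upstream of the chains is shown for COL6A2, COL18A1 and the collagen IV pair, whose genes lie near other members. The RefSeq promoter table used here gave windows for 8 of the 10 genes, 10 windows in all, of which 2 of COL5A1 are nearly the same stretch. COL6A1 and COL1A1 were not matched. Only the 250 bases before the first transcribed base are used. Capitals mark, on either strand, the GC box GGGCGG, the TATA box TATAAA and the AHR response element core GCGTG, and overlapping matches run together. Coordinates are GRCh38.p14 and every sequence reads 5′ to 3′ along the plus strand. COL6A2, which was above the lowest value in A549-TIPARP cells only, comes first. Next are the windows of its chromosome 21 neighbour COL18A1 at both RefSeq starts. Last is the stretch that separates the opposed RefSeq starts of COL4A1 and COL4A2.
COL6A2, chr21:46097862-46098111: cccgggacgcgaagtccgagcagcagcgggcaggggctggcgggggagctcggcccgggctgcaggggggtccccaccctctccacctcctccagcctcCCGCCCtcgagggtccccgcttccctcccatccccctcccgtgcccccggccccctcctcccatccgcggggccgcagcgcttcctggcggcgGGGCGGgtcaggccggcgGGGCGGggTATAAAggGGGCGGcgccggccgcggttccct
COL18A1 upstream start, chr21:45404915-45405164: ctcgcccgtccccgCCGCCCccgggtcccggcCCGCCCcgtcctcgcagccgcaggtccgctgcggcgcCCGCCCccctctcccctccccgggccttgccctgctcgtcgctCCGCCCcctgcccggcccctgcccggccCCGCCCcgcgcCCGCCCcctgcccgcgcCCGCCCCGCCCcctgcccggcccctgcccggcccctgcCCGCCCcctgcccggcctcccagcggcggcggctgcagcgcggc
COL18A1 downstream start, chr21:45455272-45455521: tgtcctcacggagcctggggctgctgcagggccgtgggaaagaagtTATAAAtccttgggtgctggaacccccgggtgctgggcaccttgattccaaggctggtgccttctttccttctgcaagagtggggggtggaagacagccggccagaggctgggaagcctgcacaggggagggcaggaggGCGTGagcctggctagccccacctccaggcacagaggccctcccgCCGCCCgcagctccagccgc
COL4A1 to COL4A2, chr13:110307158-110307283: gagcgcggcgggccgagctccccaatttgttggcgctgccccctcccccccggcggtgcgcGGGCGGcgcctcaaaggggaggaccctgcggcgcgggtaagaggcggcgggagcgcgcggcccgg

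The COL6A2 window held 4 GC boxes and a TATA box 32 bases before its start, and the first COL18A1 window held 9 GC boxes and no TATA box. Its GC content was 88.4%, against a median of 58% over all 35116 promoter windows. The second COL18A1 window held 1 match to each motif. The RefSeq starts of COL4A1 and COL4A2 have 126 bases between them, on opposite strands, with 1 GC box. GENCODE places the outermost COL4A2 start farther upstream, inside COL4A1. All 10 windows held a GC box (42.6% of all windows), 3 held a TATA box (10.7%) and 3 held the AHR core (32.2%), which were those of COL12A1, COL18A1 at its downstream start and COL4A2. Matches describe letters in these windows and not factor binding.

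The labels were checked first. TIPARP was listed at 3.68 to 11.4 TPM in the A549-GFP libraries and at 90.5 to 131 TPM in the A549-TIPARP libraries, and transgene and endogenous transcripts are not separated by these values. All 10 markers of A549 epithelium were analysed, with summed TPM of 21996.5 to 36953.2 in A549-GFP cells and 32842 to 35013 in A549-TIPARP cells. Of these, KRT19 passed 2-fold (log2 fold change 2.00, SE 0.36), while CPS1 differed by −0.96 (SE 0.33) and ALDH1A1 by 0.53 (SE 0.26). All 8 endothelial markers were at the lowest value in every library. Of 10 fibroblast and mesenchymal stem cell markers 8, among them COL1A2, COL3A1, DCN and PDGFRB, were at the lowest value throughout. LUM was above it only in A549-GFP replicate 2, and NT5E was at 14.4 to 50.8 TPM in A549-GFP and 23.0 to 46.3 TPM in A549-TIPARP cells (difference 0.43, SE 0.49). With markers at the lowest value counted as 1 TPM each, the list summed to 23.4 to 59.9 TPM in A549-GFP and 32.0 to 55.3 TPM in A549-TIPARP cells. A549-GFP replicate 2 stood apart: its root mean square deviation from its line was 0.62 log2 units, against 0.19 to 0.40 in the other libraries, and its median level was 0.28 above the mean library. Its deviations resembled those of A549-TIPARP replicate 3 (r = 0.60 across genes, which are not independent). A549-TIPARP replicate 3 was the highest library of its line for COL6A1, COL6A2, COL18A1, COL7A1, COL12A1 and COL1A1 and the lowest for COL4A1 and COL4A2. Without A549-GFP replicate 2 KRT19 differed by 1.68, CPS1 by −0.61, ALDH1A1 by 0.27 and NT5E by 1.01. Differences of the members are given with and without A549-GFP replicate 2. In such bulk libraries, fewer cells that express a gene and less RNA per cell cannot be told apart.

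COL18A1, COL4A2 and COL7A1 were the only members above 2 TPM in every library and together held 79.4% to 91.4% of the summed TPM of the 10 chains. In A549-GFP cells their geometric means were 31.1, 12.1 and 19.1 TPM, and the ranges of all 3 overlapped. In A549-TIPARP cells COL18A1, at 67.4 TPM, lay above COL4A2 at 23.0 and COL7A1 at 21.4, which overlapped each other. COL12A1, COL4A1 and COL6A1 formed a lower tier in A549-GFP cells at 2.49, 2.47 and 1.75 TPM, with overlapping ranges. In A549-TIPARP cells the order of this tier was COL6A1 at 5.80, COL12A1 at 4.70, COL4A1 at 4.47 and COL6A2 at 2.90 TPM, again with ranges that overlapped from each gene to the next. COL1A1 and COL5A3 came last among the chains above the lowest value.

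**Figure D1:**
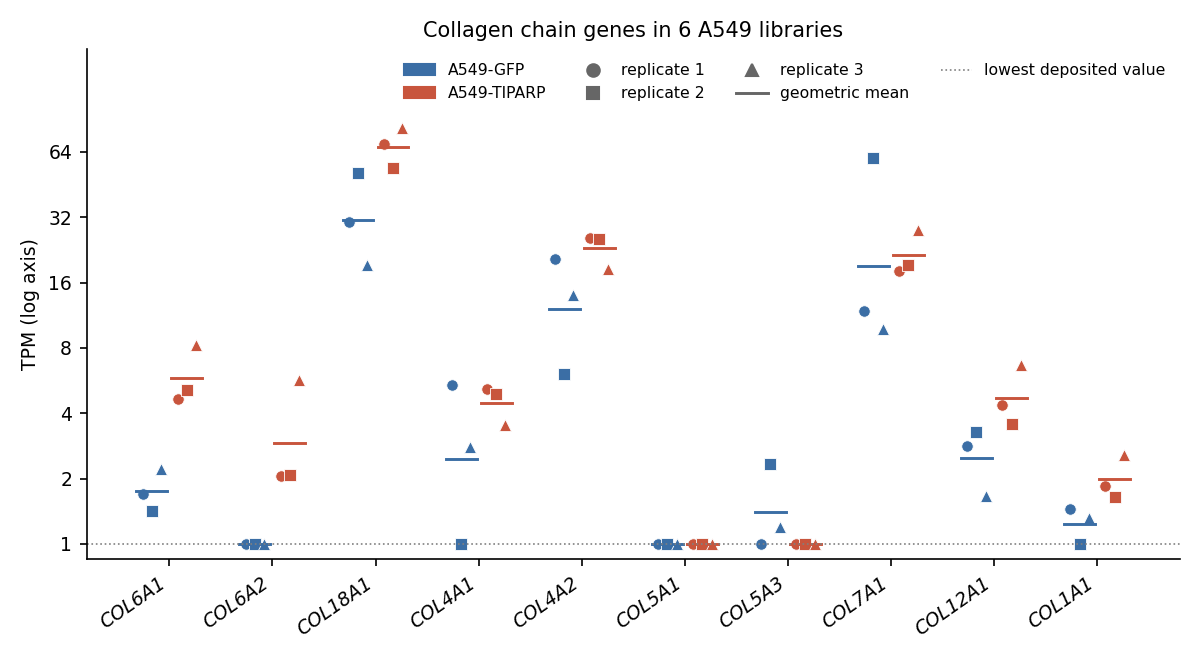
TPM of the 10 collagen chain genes (log axis) in 3 A549-GFP libraries (blue) and 3 A549-TIPARP libraries (red); symbols mark replicates, bars geometric means and the dotted line the lowest deposited value of 1 TPM. COL18A1 is the most abundant chain on average in both lines, and COL6A2 leaves the lowest value in A549-TIPARP libraries only.

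The collagen VI chains COL6A1 and COL6A2 had the largest differences between the lines among the 9 analysed members. COL6A2 lost that place without A549-TIPARP replicate 3 (1.05, against 1.09 for COL4A2) and with a pseudocount of 1 (0.99, against 1.09 for COL18A1). With A549-GFP replicate 2 and A549-TIPARP replicate 3 both left out, an alternative chosen after seeing the data, COL18A1 was at 1.34, COL6A1 at 1.33 and COL6A2 at 1.05. COL6A1 encodes its alpha 1 chain (chr21:45981770-46005050, plus strand, 35 exons in the canonical GENCODE transcript). It measured 1.70, 1.42 and 2.22 TPM in A549-GFP replicates 1 to 3, and 4.63, 5.13 and 8.24 TPM in the A549-TIPARP replicates. All 3 A549-TIPARP libraries lay above the A549-GFP libraries, the highest being replicate 3. The mean log2 TPM was 0.81 ± 0.32 against 2.54 ± 0.44 (SD, n = 3 each), a difference of 1.73 (SE 0.34, 95% interval 0.96 to 2.50), or 3.31-fold, and 1.58 without A549-GFP replicate 2.

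COL6A2, the alpha 2 chain of the same protein, lies downstream on the same strand at chr21:46098112-46132848, 93.1 kb beyond the end of COL6A1. It was at the lowest value in all 3 A549-GFP libraries and at 2.06, 2.09 and 5.69 TPM in A549-TIPARP replicates 1 to 3. It therefore passed the expression filter through A549-TIPARP cells alone. Its difference of 1.54 log2 units (SE 0.45) is a lower bound, at least 2.90-fold, and is the same without A549-GFP replicate 2. In A549-TIPARP cells COL6A1 exceeded COL6A2 by 2.25, 2.46 and 1.45 times in the 3 libraries. COL6A3, whose alpha 3 chain joins them in the usual collagen VI molecule, was at the lowest value in every library.

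COL18A1 lies on chromosome 21 as well (chr21:45405165-45513720), 468 kb before COL6A1. It measured 30.4, 51.1 and 19.3 TPM in A549-GFP replicates 1 to 3 and 69.5, 53.7 and 82.3 TPM in the A549-TIPARP replicates. The lines did not overlap, but A549-GFP replicate 2 came within a few TPM of A549-TIPARP replicate 2. The mean log2 TPM was 4.96 ± 0.70 against 6.08 ± 0.31, a difference of 1.12 (SE 0.35, 95% interval 0.33 to 1.91), or 2.17-fold, and 1.48 without A549-GFP replicate 2. It was below 2-fold when A549-GFP replicate 3 (0.77) or A549-TIPARP replicate 3 (0.98) was left out. The annotated span of COL18A1 overlaps that of SLC19A1, and the sources do not say whether strand was used in counting.

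The basement membrane chains COL4A1 and COL4A2 (chr13:110148963-110307157, minus strand, and chr13:110305812-110513209, plus strand) share 1346 bases in GENCODE, so reads there could be split between them. COL4A1 measured 5.38, 1 (the lowest value) and 2.79 TPM in A549-GFP replicates 1 to 3, and 5.17, 4.91 and 3.53 TPM in the A549-TIPARP replicates. COL4A2 measured 20.6, 6.09 and 14.0 TPM, and 25.8, 25.4 and 18.5 TPM. For both genes the lines overlapped, and A549-GFP replicate 2 was the lowest library of all.
COL4A1 differed by 0.86 log2 units (SE 0.56, 95% interval −0.42 to 2.14), a lower bound because of the A549-GFP library at the lowest value, and COL4A2 by 0.93 (SE 0.42, −0.02 to 1.88). Without A549-GFP replicate 2 these differences were 0.21 and 0.44, or 1.15-fold and 1.35-fold, and with A549-TIPARP replicate 3 left out as well they were 0.38 and 0.59. COL4A2 exceeded COL4A1 by 3.83 and 5.01 times in A549-GFP replicates 1 and 3, by at least 6.09 times in replicate 2, and by 4.99, 5.18 and 5.25 times in A549-TIPARP cells. The ratio in A549-TIPARP cells was thus confined to a narrow range that lay within the spread of the A549-GFP libraries.

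COL7A1, the anchoring fibril chain, lies at chr3:48564073-48595329 (minus strand, 119 exons in the canonical transcript), and its difference turned on 1 library. It measured 11.9, 60.0 and 9.81 TPM in A549-GFP replicates 1 to 3 and 18.0, 19.3 and 28.1 TPM in the A549-TIPARP replicates. A549-GFP replicate 2 was above all other libraries, while the remaining A549-GFP libraries were below all A549-TIPARP libraries. The difference was 0.16 log2 units (SE 0.61, 95% interval −1.23 to 1.56). It became 0.99, or 1.98-fold, without that library and 0.79 without A549-TIPARP replicate 3 as well. It turned negative when A549-GFP replicate 1 (−0.18), A549-GFP replicate 3 (−0.32) or A549-TIPARP replicate 3 (−0.04) was left out. In A549-GFP replicate 2 COL7A1 lay 2.48 log2 units above the mean of the other A549-GFP libraries, COL18A1 1.08 above, COL4A2 1.48 below and COL4A1, at the lowest value there, at least 1.95 below, against a median of 0.38 above over all analysed genes.

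COL12A1, a chain that associates with fibrils (chr6:75084326-75206267, minus strand), measured 2.82, 3.28 and 1.66 TPM in A549-GFP replicates 1 to 3 and 4.36, 3.58 and 6.66 TPM in the A549-TIPARP replicates. The lines did not overlap, by a small margin between the replicates numbered 2. The difference was 0.92 log2 units (SE 0.37, 95% interval 0.07 to 1.77), or 1.89-fold. It was 1.12 without A549-GFP replicate 2, 0.63 without A549-GFP replicate 3 and 0.67 without A549-TIPARP replicate 3.

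The fibrillar chains among the members, COL1A1, COL5A1 and COL5A3, were scarce. COL1A1, which makes the bulk of collagen I (chr17:50184101-50201632, minus strand), measured 1.44, 1 (the lowest value) and 1.31 TPM in A549-GFP replicates 1 to 3 and 1.84, 1.64 and 2.56 TPM in the A549-TIPARP replicates. The lines did not overlap, and A549-TIPARP replicate 3 was the only library above 2 TPM, so the gene was analysed because of that library. The difference was 0.68 log2 units (SE 0.35, 95% interval −0.11 to 1.47), a lower bound with 1 A549-GFP library at the lowest value. It was 0.53 without that library, A549-GFP replicate 2, and 0.34 without A549-TIPARP replicate 3 as well. COL1A2, its partner chain, was at the lowest value in every library. COL5A3, a collagen V chain (chr19:9959561-10010504, minus strand), measured 1 (the lowest value), 2.33 and 1.19 TPM in A549-GFP replicates 1 to 3 and the lowest value in all A549-TIPARP libraries. It was the only analysed member with a lower mean in A549-TIPARP cells, by −0.49 log2 units (SE 0.41) and by −0.13 without A549-GFP replicate 2, and it passed the filter through A549-GFP replicate 2 alone. The main collagen V chain, COL5A1 (chr9:134641803-134844843), was at the lowest value in every library, whereas COL5A2 was above it in every library.

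**Figure D2:**
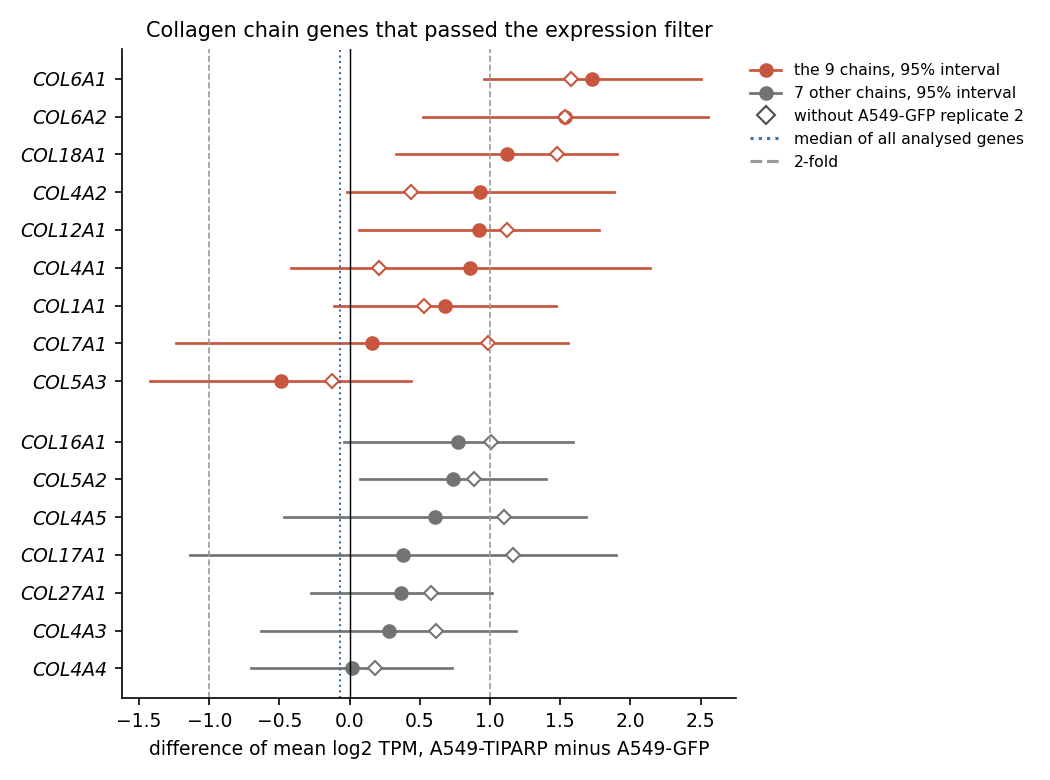
Log2 difference between the mean log2 TPM of A549-TIPARP and A549-GFP cells for the 9 analysed members (red) and the 7 other analysed collagen chains (grey), filled points with 95% intervals and open diamonds without A549-GFP replicate 2; the dashed lines mark 2-fold and the dotted line the median of all analysed genes. COL6A1, COL6A2 and COL18A1 lie past 2-fold (1 log2 unit), and COL5A3 is the only one of these chains below 0.

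By count, 8 of the 9 analysed members averaged higher in A549-TIPARP than in A549-GFP libraries, as did 5285 of the 13181 analysed genes. More than 2-fold higher were 3 members (COL6A1, COL6A2, COL18A1), and 1.53% of analysed genes were. None was more than 2-fold lower, against 0.432%. Every A549-TIPARP library lay above every A549-GFP library for 5 members, and for 5.36% of analysed genes. Just inside the 2-fold limit was COL18A1 at 1.12, and just outside were COL4A2 at 0.93, COL12A1 at 0.92 and COL4A1 at 0.86. The members' median difference was 0.92 log2 units and that of all analysed genes −0.07. Nothing is read from these shares about the members, which were chosen with the contrast known, and 3 of the 9 (COL6A2, COL1A1, COL5A3) passed the filter through 1 line only.

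The limma model was fitted to all 13181 genes with Benjamini-Hochberg adjustment. It called 0 of the 9 members (adjusted p from 0.369 for COL6A1 to 0.997 for COL7A1) and 0.0152% of all genes, and 4 members and 516 genes had an unadjusted p under 0.05. Leaving out A549-GFP replicate 1 raised the members past 2-fold to 6, adding COL4A1, COL4A2 and COL12A1, and the share of all analysed genes to 2.46%. Without A549-GFP replicate 2 there were 4, adding COL12A1, against 2.91% of analysed genes. Without A549-GFP replicate 3 COL4A2 took the place of COL18A1, and without A549-TIPARP replicate 3 COL4A1 and COL4A2 were past 2-fold and COL18A1 was not (2.01% and 1.84% of analysed genes). Without A549-TIPARP replicate 2 there were 4, again with COL12A1 (1.12), against 2.25% of analysed genes. With A549-GFP replicate 2 and A549-TIPARP replicate 3 both left out there were 3, COL6A1, COL6A2 and COL18A1, against 1.94%. COL6A1 ranged from 1.48 to 1.90 and COL6A2 from 1.05 to 1.78 over the libraries left out, while COL18A1 ranged from 0.77 to 1.48.

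The summed TPM of the 10 chains, with chains at the lowest value counted as 1 TPM, was 77.2, 128 and 54.2 in A549-GFP replicates 1 to 3 and 133, 118 and 158 in the A549-TIPARP replicates. A549-GFP replicate 2 exceeded A549-TIPARP replicate 2, so the lines overlapped. The means were 86.6 ± 37.9 and 136 ± 20.1 TPM (SD, n = 3 each), a ratio of 1.57. The ratio ran from 1.33 without A549-GFP replicate 3 to 2.07 without A549-GFP replicate 2, and was 1.91 without that library and A549-TIPARP replicate 3. COL18A1 held 35.5% to 39.9% of the sum in A549-GFP and 45.6% to 52.2% in A549-TIPARP cells, without overlap. COL7A1 held 46.8% in A549-GFP replicate 2 and 13.5% to 18.1% in the other libraries.

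**Figure D3:**
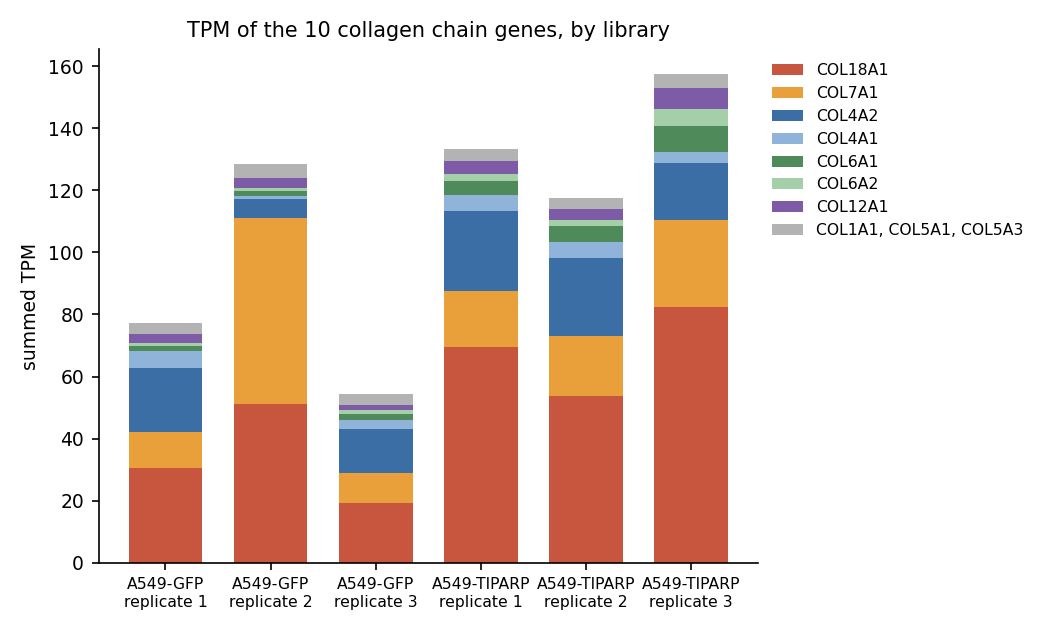
Summed TPM of the 10 collagen chain genes in each library, stacked by chain, with chains at the lowest value counted as 1 TPM. COL7A1 fills 46.8% of the bar of A549-GFP replicate 2, and COL18A1 is the largest segment in the A549-TIPARP libraries.

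Among the 34 other collagen chain genes, 26 were at the lowest value in every library and 7 were analysed. COL4A6 was above the lowest value in A549-GFP replicate 2 only, without passing 2 TPM. All 7 averaged higher in the A549-TIPARP libraries (5285 of all 13181 analysed genes did), none was past 2-fold, and the median difference was 0.38 log2 units. COL16A1 passed the filter through A549-TIPARP libraries only. COL5A2, the second collagen V chain, measured 4.22, 4.84 and 2.95 TPM in A549-GFP replicates 1 to 3 and 7.40, 6.72 and 5.61 TPM in the A549-TIPARP replicates, without overlap, a difference of 0.74 (SE 0.29). The difference was at least 0.77 (SE 0.36) for COL16A1, a fibril-associated chain whose lines barely failed to overlap. It was 0.61 (SE 0.47) for COL4A5 and at least 0.38 (SE 0.66) for COL17A1, a hemidesmosome chain. Both bounds arise because A549-GFP replicates 1 and 3 were at the lowest value. The difference was 0.37 (SE 0.28) for COL27A1, 0.28 (SE 0.40) for COL4A3 and 0.01 (SE 0.31) for COL4A4. By limma 0 of the 7 passed an adjusted p of 0.05, against 0.0152% of all analysed genes. An unadjusted p under 0.05 was found for 1, COL5A2, and for 516 of all 13181 analysed genes. Without A549-GFP replicate 2, COL4A5, COL16A1 and COL17A1 passed 2-fold (1.10, at least 1.01 and at least 1.16), against 2.91% of analysed genes. The bounds arise because the remaining A549-GFP libraries were at the lowest value for COL16A1 and COL17A1. In the same setting COL4A3 and COL27A1 differed by 0.62 and 0.58. Over the libraries left out COL17A1 and COL4A4 reached −0.01 and −0.20 at their lowest. COL antisense entries numbered 6, and all 6 were at the lowest value throughout.

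Genes that fold, modify, bind and cleave collagen were listed as further groups. Of 31 folding and crosslinking genes 24 were analysed, 15 with a higher and 9 with a lower mean. Of all 13181 analysed genes 5285 had a higher mean. The median of the list was 0.08 log2 units. P3H3, a collagen prolyl hydroxylase family member, passed 2-fold (1.02, SE 0.25), with 7.68, 8.65 and 11.4 TPM in A549-GFP replicates 1 to 3 and 15.5, 19.2 and 21.2 TPM in the A549-TIPARP replicates. It ran from 0.90 to 1.18 over the libraries left out and was 0.98 without A549-GFP replicate 2. P3H2 differed by 0.67 (SE 0.36) with overlapping lines. TMEM38B, an endoplasmic reticulum ion channel needed for normal collagen processing, differed by −0.54 (SE 0.26) and was lower in every A549-TIPARP library.
Of 14 collagen receptor genes 7 were analysed. MRC2, an endocytic receptor that takes up collagen fragments, measured 2.65, 1.44 and 3.15 TPM in A549-GFP replicates 1 to 3 and 12.0, 15.5 and 23.8 TPM in the A549-TIPARP replicates. That was a difference of 2.84 log2 units (SE 0.38). ANTXR1, a receptor that binds collagens including collagen VI, differed by 0.83 (SE 0.35), and CD44 by 0.29 (SE 0.22). Without A549-GFP replicate 2 these 3 differed by 2.51, 0.83 and 0.49.
Of 14 collagenases and processing proteases 6 were analysed and none passed 2-fold. MMP7, which the paper reports as upregulated in A549-TIPARP cells and places in collagen degradation, was not on this list. CTSL, a lysosomal protease, differed by −0.72 (SE 0.31) and MMP15 by 0.26 (SE 0.21). CTSS differed by at least 0.52 (SE 0.52), with 2 A549-GFP libraries at the lowest value. Without A549-GFP replicate 2 CTSS passed 2-fold (at least 1.14, with the remaining A549-GFP libraries at the lowest value), CTSL differed by −0.34 and MMP15 by 0.28. By limma, 0 genes of these 3 lists passed an adjusted p of 0.05, against 0.0152% of all analysed genes. An unadjusted p under 0.05 was found for 1 folding gene, 2 receptors and 1 protease, and for 516 of all 13181 analysed genes.

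**Figure D4:**
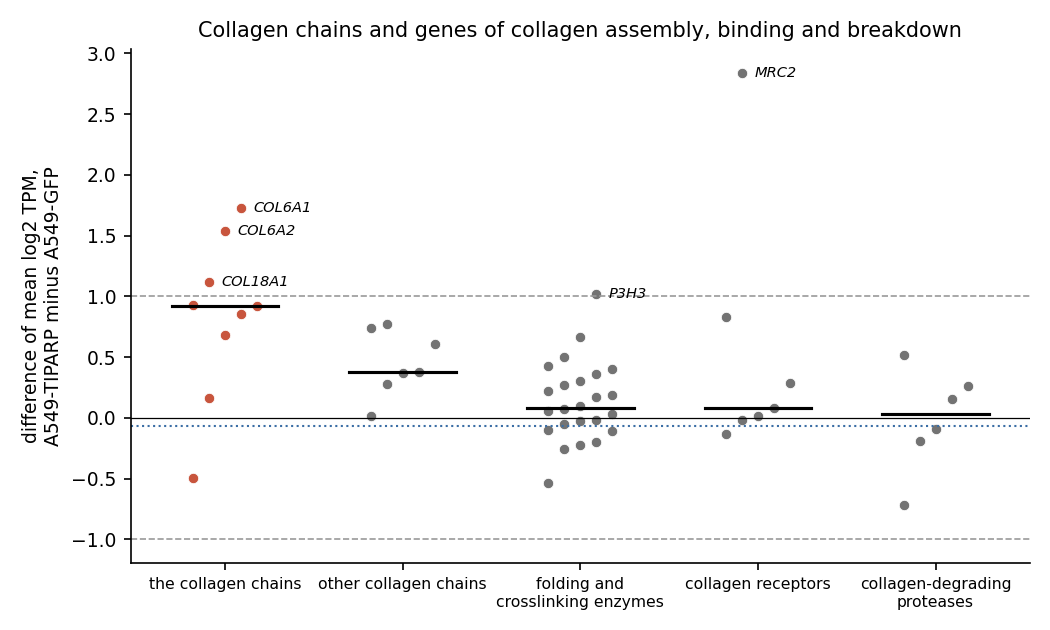
Log2 difference between A549-TIPARP and A549-GFP cells for the analysed genes of the members, the other collagen chains and the collagen folding, receptor and protease lists; each point is 1 gene, black bars are list medians, dashed lines mark 2-fold and the dotted line is the median of all analysed genes. MRC2 is the farthest point at 2.84, and the medians of the folding, receptor and protease lists lie at 0.08, 0.08 and 0.03.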

How the data were processed

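RNA of 3 A549-GFP and 3 A549-TIPARP libraries was prepared with a stranded mRNA kit and sequenced in paired-end mode. Per the study's methods, the authors used Strand NGS with its default settings, aligned to hg38, and deposited log2 TPM per gene. The software version, annotation release and handling of strand and multiply mapped reads are not given in the sources used here. Libraries were assigned to lines and replicates by the experiment numbers in the titles. The numbers in the names of the tables differ from these and played no part. The values were used as deposited. Genes above 2 TPM in at least 1 library were fitted with limma 3.58.1 in R 4.3.3 (variance trend, no block, Benjamini-Hochberg over 13181 genes). All SE and intervals given are from this fit and use its moderated variances, while SD are those of the libraries of a line. Without the trend the SE of COL18A1 was 0.37 and that of COL7A1 0.65. The script was tested on simulated data. Summed levels and ratios used TPM. Depth is unknown.

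The members and gene lists were chosen with earlier results of these data known. Besides the members, the genes named are the analysed other chains, genes past 2-fold or the 3 largest changes of each list, TIPARP, and the 5 genes most like COL6A1. Positions and exons of members are from GENCODE 44 on hg38, and promoter windows and positions of neighbouring genes from RefSeq. The main fit has no block, since the study's methods state none for the RNA-seq. Same-numbered libraries had deviations correlated at 0.41, -0.49 and -0.36, and differently numbered libraries at -0.62 to 0.60. These deviations are taken from line means over 3 libraries and are not independent. They cannot show whether same-numbered libraries shared an experiment. Alternatives were a pseudocount of 1 or 0.1, other filters, median-ratio rescaling, limma without a trend, the replicate block and each library left out. Leaving out A549-GFP replicate 2 and A549-TIPARP replicate 3 together was chosen after seeing the data.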

Additional observations from a re-analysis of the deposited data

How the results depend on the processing

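The number of members past 2-fold, 3 as reported, ran from 3 to 6 over the libraries left out, with 6 without A549-GFP replicate 1. The share of all analysed genes more than 2-fold higher ran from 1.73% to 2.91% there, against 1.53% in the main fit. COL18A1 was not among the members past 2-fold without A549-GFP replicate 3 or A549-TIPARP replicate 3. With a pseudocount of 1 the number of members was 2, since COL6A2 then differed by 0.99, and the share was 0.592%. Over all alternatives 3 of 124 member values changed sign, all of COL7A1, whose values ran from -0.32 to 0.99 over the libraries left out. No member was called by limma under any alternative, with adjusted p from 0.203 (COL18A1 without A549-GFP replicate 2) to 1. The number of genes called by limma, 2 as reported, was 1 with no filter and 1 without a trend, and ran from 1 to 4 over the libraries left out. Rescaling moved the median of all genes from -0.07 to about 0. The causes were not tested. With the replicate block, 1 gene was called and COL6A1 had an adjusted p of 0.999. Whether same-numbered libraries shared an experiment cannot be told from their deviations. Groups of 3 and an unknown depth limit how small a difference could be told from the spread between libraries.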

Other observations

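COL18A1, COL6A1 and COL6A2, the members past 2-fold, all lie on chromosome 21, a grouping noted after their values were seen. Of 123 analysed genes on chromosome 21, these 3 were the only ones more than 2-fold higher in A549-TIPARP cells. Of all analysed genes 1.53% were. Nothing is read from this count, since the members were chosen with the contrast known. The other 120 had a median log2 difference of -0.13 and ranged from -1.53 to 0.82, and 41 of them had a higher mean. Within 1 Mb of the interval from COL18A1 to COL6A2, 18 other genes were analysed, with a median of -0.08 and a range of -0.59 to 0.68, the highest being LSS, an enzyme of cholesterol synthesis. SLC19A1, a folate carrier whose gene overlaps COL18A1, differed by -0.18.

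The 5 analysed genes whose log2 TPM followed that of COL6A1 most closely over the 6 libraries were KLC3 (Pearson r 0.993), DARS-AS1 (0.992), MRC2 (0.991), QPRT (0.991) and HAPLN3 (0.987). The libraries are shared and fall into the same lines, so genes that differ between the lines resemble each other here, and the values are a description. Their log2 differences between the lines were 0.97, 1.07, 2.84, 1.59 and 1.18. In A549-GFP cells the mean log2 TPM of DARS-AS1 was 0.21 and that of HAPLN3 0.07, near the lowest value of 0. The differences and correlations of these genes therefore rest on values close to that limit.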
